A study of Mus musculus with 9 samples.

Results

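Glycosylphosphatidylinositol (GPI) is a glycolipid that holds proteins on the outer face of the cell membrane. It is built on the endoplasmic reticulum membrane by a chain of enzymes that add sugars, acyl chains and ethanolamine phosphates to phosphatidylinositol, and a transamidase then joins the finished anchor to a protein. In blood cells the pathway is best known through PIGA, the X-linked gene whose somatic loss in blood stem cells causes paroxysmal nocturnal haemoglobinuria, and B cells carry GPI-anchored surface proteins such as CD24, CD48, CD52 and CD55. The 31 genes described here code for enzymes and subunits of this pathway, for the supply of its mannose donor, for the remodelling of attached anchors and for an enzyme that cuts them. They were 31 of 27179 genes in the count table, and all 31 had enough reads to be tested, among 13129 tested genes. The family was chosen because Pigh, a subunit of the first enzyme, was already known to be high in the p-UPF1 precipitate over the IgG precipitate in these same libraries. The values of Pigh in the contrasts that hold p-UPF1 are therefore given as a description, without a test, and the other 30 genes were listed by function.

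RNA immunoprecipitation sequencing (RIP-seq) measures which RNAs come down with a protein. The cells were wild-type mouse spleen B cells, taken as CD43- cells and activated for 72 h with CD40L (5 ug/mL), anti-IgM antibody (10 ug/mL) and IL-4 (20 ng/mL), and all 9 libraries share this genotype and treatment. The study's methods name an anti-CD40 antibody in place of the ligand. Lysates were precipitated with normal rabbit IgG (3 libraries) or with an antibody that recognises UPF1 in its phosphorylated form (p-UPF1, 3 libraries), and RNA of the lysate was sequenced as input (3 libraries). UPF1 is the helicase of nonsense-mediated mRNA decay (NMD). It acts where a ribosome stops translating, and its phosphorylation accompanies the recruitment of decay enzymes. NMD is known to act on mRNAs with an exon junction well downstream of the stop codon, on some mRNAs with long 3′ UTRs and on mRNAs with short upstream reading frames.

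Libraries held 17372510 to 24945286 counts each, and the GPI genes took 0.102 to 0.103% of the input counts, 0.0955 to 0.0978% of the IgG counts and 0.108 to 0.109% of the p-UPF1 counts. The study's statistics text calls its plotted data points independent replicates of the biological kind, but the labels do not say whether the libraries of a group came from separate mice. P values measure the spread between these libraries, part of which may be technical. B cell genes were abundant in the input libraries, with Cd79b at 1229 ± 1.51 and Ms4a1 at 725 ± 12.7 CPM (read counts scaled to a common library size; mean ± SD, n = 3). The plasma cell markers, 3 genes, summed to 21.8 to 25.2 CPM. Markers of T cells (4 genes), myeloid cells (3 genes), erythroid cells (3 genes) and NK cells (2 genes) each summed to 0.73 CPM or less in every input library, and Hba-a1, Hbb-bs and Ncr1 had no read in any library. In such bulk RNA, fewer cells expressing a gene and less RNA of it per cell cannot be told apart. A precipitate is read as shares of its own library, so a log2 fold change of 0 stands for recovery like that of the typical RNA and not for the absence of recovery.

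The 6 genes listed for the first step, Pigh among them, code for subunits of 1 enzyme, and the sequence around their annotated stop codons is printed because UPF1 acts at the terminating ribosome. Each line gives 30 bases in the sense of the mRNA from the RefSeq annotation of GRCm38, with the stop codon in capitals. They lie at chrX:164431882-164431911 on the plus strand (Piga), chr1:161971330-161971359 on the plus strand (Pigc), chr12:79082389-79082418 on the minus strand (Pigh), chr16:94364648-94364677 on the minus strand (Pigp), chr17:25927589-25927618 on the minus strand (Pigq) and chr9:22158196-22158225 on the plus strand (Pigyl).
Piga: tcccaaagcaggTAGaagcaagcccaagtt
Pigc: aggttccttagcTAAtctagggaccttcat
Pigh: gcaacaagcttaTGAggctcagcattcaaa
Pigp: gaactcaataccTAAaactgagctgtgtat
Pigq: gacaaacaggacTGAggagctggacacagc
Pigyl: ttcagacataacTAGgggagccgaggcccc
All 3 stop codons occur among the 6 genes. TGA closes the reading frames of Pigh and Pigq, which came down very differently, as described next.

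Pigh was recovered with p-UPF1 far above both comparators, and the other 5 genes listed for the same enzyme were not. The enzyme transfers N-acetylglucosamine to phosphatidylinositol. PIGA is its catalytic subunit and PIGC, PIGH, PIGP, PIGQ and the small subunit encoded by Pigyl are needed with it. Pigh (NCBI Gene 110417, chr12:79080669-79089753, minus strand, 4 exons) stood at 8.88, 9.84 and 8.92 CPM in the input libraries A, B and C, letters that the count columns carry. It stood at 5.47, 5.21 and 6.16 CPM in the IgG libraries and at 64.2, 63.3 and 61.3 CPM in the p-UPF1 libraries, from 1353 to 1524 reads each. Every p-UPF1 library lay far above all 6 other libraries, and every IgG library lay below every input library. The log2 fold change of p-UPF1 was 3.49 (SE 0.079) over IgG and 2.77 (SE 0.072) over input, which ranked Pigh 45th and 186th from the top of the 13129 genes. For IgG over input it was −0.71 (SE 0.096), also without a test, since the IgG libraries entered the value by which Pigh was chosen.

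**Figure D1:**
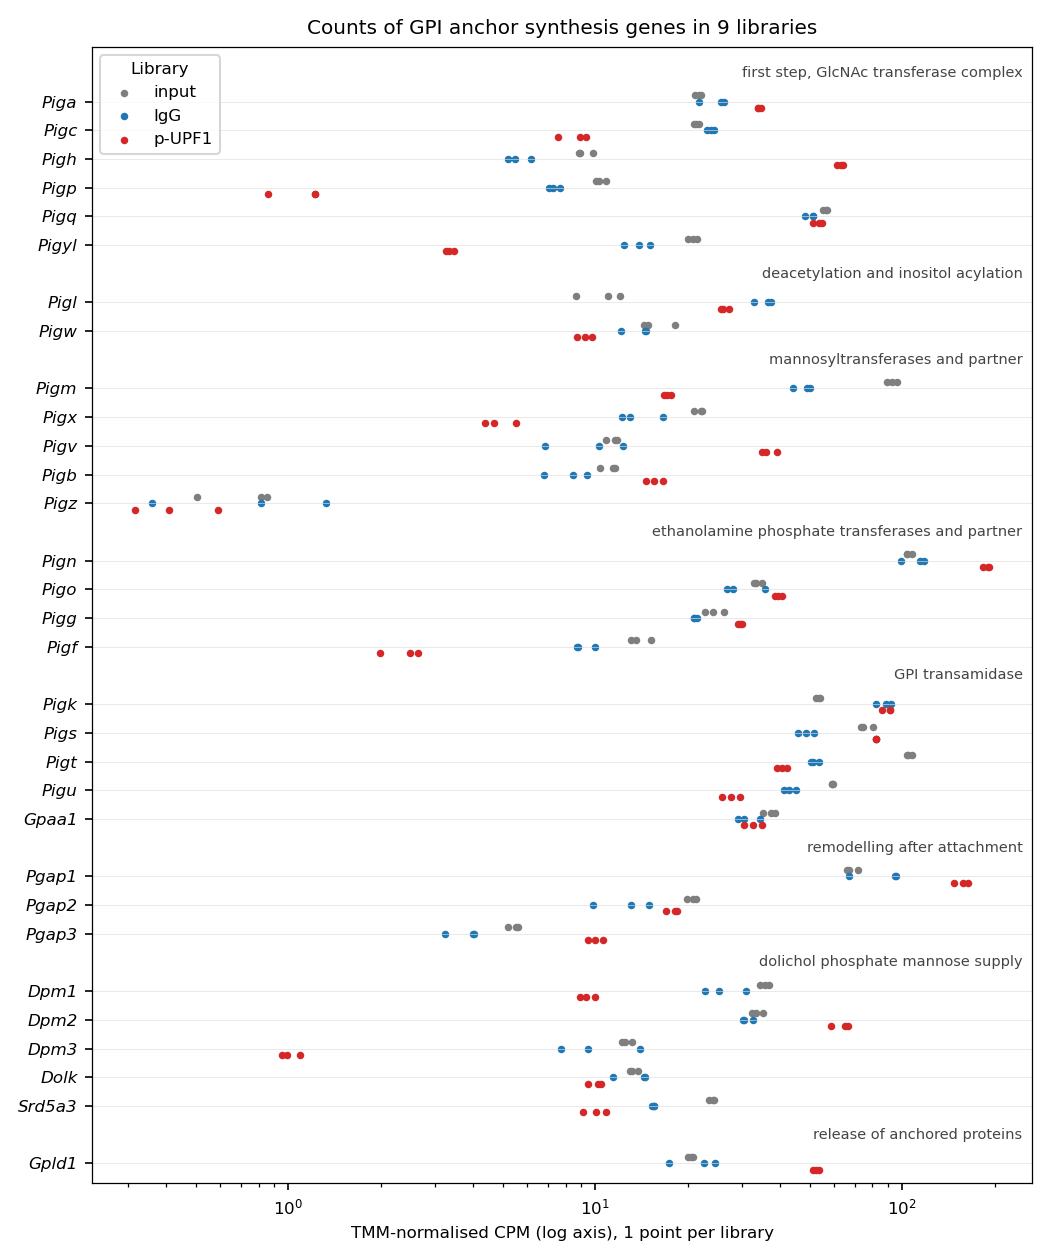
TMM-normalised CPM (log axis) of the 31 GPI genes, grouped by role, with 1 point per library (grey input, blue IgG, red p-UPF1). The p-UPF1 points of Pigh sit between 61.3 and 64.2 CPM, right of its other points, while those of Dpm3, Pigp, Pigyl and Pigf sit left of theirs.

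The other 5 genes listed for this enzyme fell on both sides of the typical RNA. DPM2 is also known to associate with it, and Dpm2 is described with the mannose supply and is not in the counts or medians of this step. Pigp (Gene 56176, chr16:94358763-94371015) had 10.3, 10.0 and 10.8 CPM in input, 7.65, 7.30 and 7.08 CPM with IgG and 1.22, 0.858 and 1.22 CPM with p-UPF1. Its 3 groups did not overlap and p-UPF1 was the lowest, with log2 fold changes of −2.73 (SE 0.16, adjusted P = 9.82e-11) over IgG and −3.23 (SE 0.16, adjusted P = 5.05e-12) over input. Pigyl (Gene 66268, chr9:22156846-22158355) had 20.8, 20.0 and 21.4 CPM in input, 15.04, 12.4 and 13.9 CPM with IgG and 3.33, 3.48 and 3.26 CPM with p-UPF1. The order was again input, IgG, p-UPF1 without overlap, at −2.03 (SE 0.11, adjusted P = 3.21e-11) over IgG and −2.63 (SE 0.11, adjusted P = 5.01e-13) over input. Pigc was also lower with p-UPF1, by −1.46 (SE 0.087) on the log2 scale over IgG and −1.30 (SE 0.087) over input. Piga, the catalytic subunit, was somewhat higher, at 0.48 (SE 0.072, adjusted P = 1.2e-05) over IgG and 0.66 (SE 0.072, adjusted P = 2.68e-07) over input. Pigq passed neither test with p-UPF1, at 0.083 (SE 0.051, adjusted P = 0.144) over IgG and −0.079 (SE 0.050, adjusted P = 0.154) over input. The median log2 fold change over IgG of these 5 genes was −1.46 (−0.69 with Pigh), beside −0.03 for all tested genes.

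Per kilobase of annotated exons, Pigh was among the less abundant GPI mRNAs of the cell. Its input level was 2.96 ± 0.17 CPM per kb (mean ± SD, n = 3), the 26th of 31, with Gpld1 at 3.13 ± 0.064 above it and Pgap2 at 2.94 ± 0.10 below. Pigh and Pgap2 did not differ beyond their spread on this scale. It divides by all annotated exons, 3115 bases for Pigh and 7024 for Pgap2. The single RefSeq transcript chosen to represent each gene has 2353 and 1907 bases. Levels per kilobase of those transcripts were not ranked, and the order may differ there. Of the 6 genes listed for the first step, Pigyl led the input at 29.98 ± 1.06 CPM per kb, followed by Pigq at 11.5 ± 0.19, Pigc at 6.23 ± 0.11, Pigp at 5.94 ± 0.22 and Piga at 5.14 ± 0.12. Pigc and Pigp lay close together on this scale, with 3416 and 1748 bases of annotated exons but 3301 and 907 bases in the representative transcripts. In the p-UPF1 precipitate Pigh had 20.2 ± 0.47 CPM per kb of annotated exons. On that scale Dpm2 (73.8 ± 4.91) and Pigs (33.0 ± 0.10) stood above it among the 31 genes.

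The study's methods call an RNA bound when p-UPF1 exceeds IgG by 1 log2 unit or more and exceeds input by 2 or more, both at an adjusted P below 0.05. Of the 31 GPI genes, 1 met this combined criterion, and it was Pigh, the gene for which the family was chosen, so this count is a description with no test and nothing is read from it. Among all tested genes 6.25% met it. Over IgG alone, 5 GPI genes were at least 1 log2 unit higher with p-UPF1 (22.2% of all tested genes), namely Pigh, Pigv, Pgap3, Dpm2 and Gpld1. In the other direction, 8 were at least 1 log2 unit lower (21.9% of all tested genes), namely Pigc, Pigf, Pigm, Pigp, Pigx, Pigyl, Dpm1 and Dpm3. Over input, 1 was at least 2 log2 units higher (6.31% of all tested genes), again Pigh. At least 2 log2 units lower were 6 (9.67% of all tested genes), namely Pigf, Pigm, Pigp, Pigx, Pigyl and Dpm3. Without Pigh the counts over IgG were 4 higher and 8 lower of 30 genes, none of which met the combined criterion, and the median was −0.16. Over input the counts without Pigh were 0 higher and 6 lower. Both contrasts share the p-UPF1 libraries, so their agreement for a gene is not separate evidence.

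**Figure D2:**
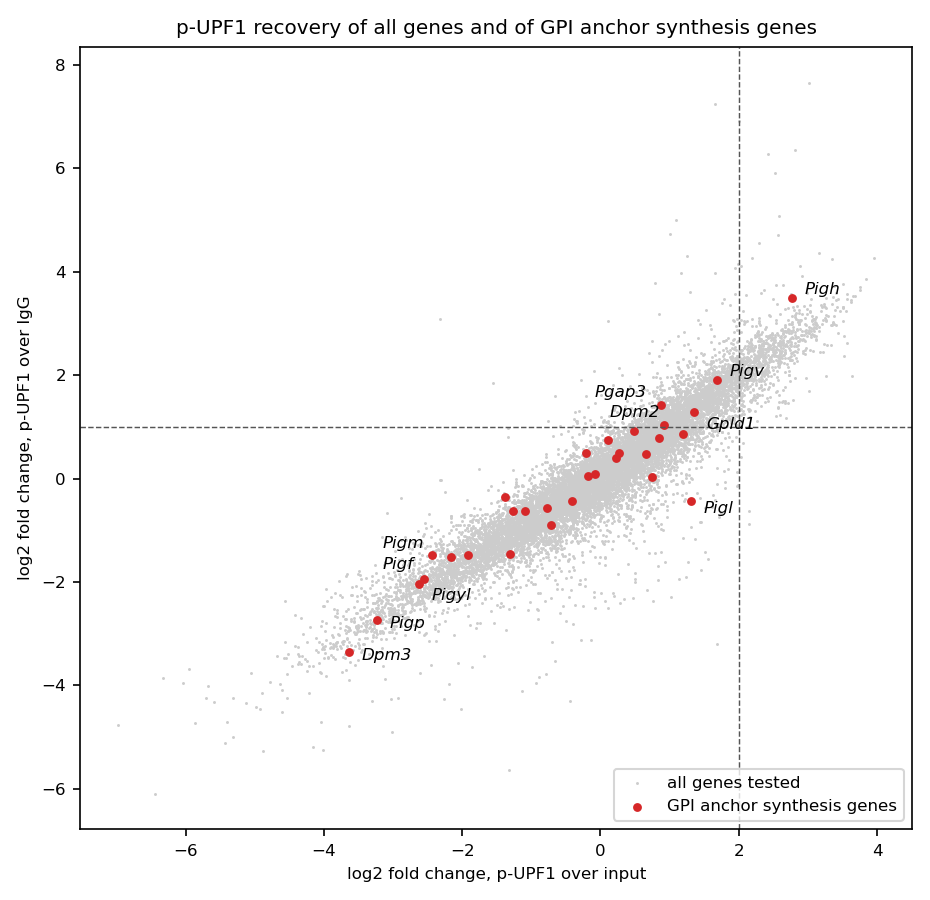
Log2 fold change of p-UPF1 over input (horizontal) and over IgG (vertical) for the 13129 tested genes (grey) and the 31 GPI genes (red), with the minima of the combined criterion as dashed lines. Pigh alone of the GPI genes lies beyond both lines, Pigv lies just left of the input minimum, and Dpm3 lies lowest of the red points.

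The next enzymes turn the first product into an acylated glucosaminyl lipid. Pigl codes for the deacetylase and Pigw for the inositol acyltransferase. Pigl (Gene 327942, chr11:62458441-62516037) was set apart by the IgG precipitate, with 12.004, 8.68 and 11.0 CPM in input, 37.3, 36.5 and 32.8 CPM with IgG and 27.2, 26.1 and 25.6 CPM with p-UPF1. All precipitates lay above all inputs, and IgG lay above p-UPF1 without overlap. Its log2 fold change was 1.74 (SE 0.097, adjusted P = 1.22e-09) for IgG over input, the 83rd highest of 13129, 1.31 (SE 0.098) for p-UPF1 over input and −0.43 (SE 0.087, adjusted P = 0.000238) for p-UPF1 over IgG. Pigw was a little lower with p-UPF1, at −0.57 (SE 0.11, adjusted P = 0.000234) over IgG and −0.77 (SE 0.11) over input.

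The mannosyltransferases add the sugars of the core in turn. Pigv (Gene 230801, chr4:133659359-133673995), which codes for the enzyme of the second mannose, came nearest to the input minimum among genes below it. It had 11.8, 11.6 and 10.8 CPM in input, 12.3, 6.84 and 10.3 CPM with IgG and 35.1, 39.0 and 36.1 CPM with p-UPF1. The p-UPF1 libraries lay above all others, while input and IgG overlapped. The log2 fold change was 1.91 (SE 0.13, adjusted P = 7.14e-10) over IgG and 1.69 (SE 0.13, adjusted P = 2.12e-09) over input.

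Pigb (Gene 55981, chr9:73015301-73039723), the gene of the third mannosyltransferase, came nearest to the IgG minimum from below. It had 11.4, 11.6 and 10.4 CPM in the input libraries, 8.45, 9.39 and 6.82 CPM with IgG and 15.5, 14.7 and 16.6 CPM with p-UPF1. The 3 groups did not overlap, and the log2 fold change was 0.92 (SE 0.11, adjusted P = 1.09e-06) over IgG and 0.49 (SE 0.11, adjusted P = 0.000542) over input. Without IgG library B it reached 1.05 over IgG. The enzyme of the first mannose went the other way. Pigm was at −1.47 (SE 0.064) over IgG and −2.43 (SE 0.061) over input, and Pigx, which codes for its stabilising partner, was at −1.52 (SE 0.13) and −2.16 (SE 0.12). Pigz, the gene of the enzyme that adds a side mannose, had only 7 to 25 reads per library and did not pass in either contrast (−0.91, SE 0.47, adjusted P = 0.0869 over IgG). Leaving out 1 library at a time moved it between −1.27 (without IgG library C, where it passed) and −0.41 (without IgG library A), and it also passed with library size alone, at −1.07.

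Ethanolamine phosphate is then attached to the mannoses by PIGN, PIGG and PIGO, and PIGF is the shared partner of the latter enzymes. The 3 transferase genes were moderately higher with p-UPF1 over IgG, at 0.78 (SE 0.054) for Pign, 0.49 (SE 0.068) for Pigg and 0.39 (SE 0.084) for Pigo. Pigf was the exception at −1.94 (SE 0.14, adjusted P = 1.37e-09) over IgG and −2.55 (SE 0.13, adjusted P = 1.69e-11) over input. It ranged from 13.1 to 15.2 CPM across the input libraries, from 8.71 to 10.0 CPM with IgG and from 1.99 to 2.65 CPM with p-UPF1, and the groups did not overlap.

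The transamidase that joins the anchor to a protein has PIGK as its catalytic subunit, with GPAA1, PIGS, PIGT and PIGU around it. None of its 5 genes was 1 log2 unit or more from IgG, where 22.2% of all tested genes were higher and 21.9% lower at that minimum. Pigs was at 0.75 (SE 0.054, adjusted P = 1.29e-09), Pigt at −0.35 (SE 0.050, adjusted P = 7.08e-06) and Pigu at −0.64 (SE 0.061, adjusted P = 4.99e-08). Pigk (0.036, SE 0.050, adjusted P = 0.514) and Gpaa1 (0.058, SE 0.074, adjusted P = 0.477) did not pass. Over input they spread further, from 0.75 (SE 0.051) for Pigk to −1.37 (SE 0.048) for Pigt. Pigt (Gene 78928, chr2:164497090-164508301) had 103, 105 and 107 CPM in input, 51.2, 50.4 and 53.7 CPM with IgG and 40.4, 39.2 and 42.0 CPM with p-UPF1. Its input libraries lay about 1 log2 unit above IgG (IgG over input −1.02, SE 0.048, adjusted P = 1.74e-10), and the p-UPF1 libraries were below both.

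Once attached, the anchor is trimmed and remodelled. Pgap1, the gene of the inositol deacylase, and Pgap2 and Pgap3, which act in fatty acid exchange, were all higher with p-UPF1 than with IgG, at 0.87 (SE 0.093), 0.50 (SE 0.11) and 1.42 (SE 0.13). Over input, Pgap1 was at 1.20 (SE 0.094) and Pgap3 at 0.88 (SE 0.12), while Pgap2 did not pass (−0.21, SE 0.11, adjusted P = 0.0845). It passed under 5 of the alternatives (library size alone, upper-quartile factors, a fit of only the groups compared, and without IgG library A or C), with values down to −0.28. Gpld1, the phospholipase D that cuts GPI anchors, was at 1.28 (SE 0.088, adjusted P = 6.57e-10) over IgG and 1.35 (SE 0.088, adjusted P = 2.63e-10) over input, with 51.1 to 53.5 CPM in p-UPF1 against 17.4 to 24.5 in IgG and 20.0 to 20.8 in input.

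The mannose of the anchor comes from dolichol phosphate mannose, and the genes of its synthase lay on both sides of the typical RNA. DPM1 is the catalytic subunit, and DPM2 and DPM3 hold it at the membrane. Dpm3 (Gene 68563, chr3:89257065-89267079) had the lowest log2 fold change with p-UPF1 of the 31 genes, over IgG and over input. It had 13.2, 12.5 and 12.2 CPM in input, 14.0, 7.76 and 9.49 CPM with IgG and 1.10, 0.993 and 0.952 CPM with p-UPF1, from 21 to 26 reads. Input and IgG overlapped, and the p-UPF1 libraries lay far below both, at −3.35 (SE 0.23, adjusted P = 5.75e-10) over IgG and −3.63 (SE 0.22, adjusted P = 1.21e-10) over input. Dpm1 was lower as well, at −1.48 (SE 0.11) and −1.92 (SE 0.10).

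Dpm2 was higher, at 1.03 (SE 0.062, adjusted P = 1.31e-10) over IgG and 0.92 (SE 0.061) over input, with 58.7 to 66.6 CPM in p-UPF1 against 30.3 to 32.7 in IgG. Its position just above 1 over IgG was lost with library size alone, upper-quartile factors or an input library as the TMM reference, at 0.87 in the lowest case, and without p-UPF1 library B (0.996). Dolk, the dolichol kinase gene (−0.43, SE 0.11, adjusted P = 0.00143 over IgG), and Srd5a3, which acts in dolichol synthesis (−0.63, SE 0.086, adjusted P = 4.05e-06 over IgG), were lower by less than 1 log2 unit.

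**Figure D3:**
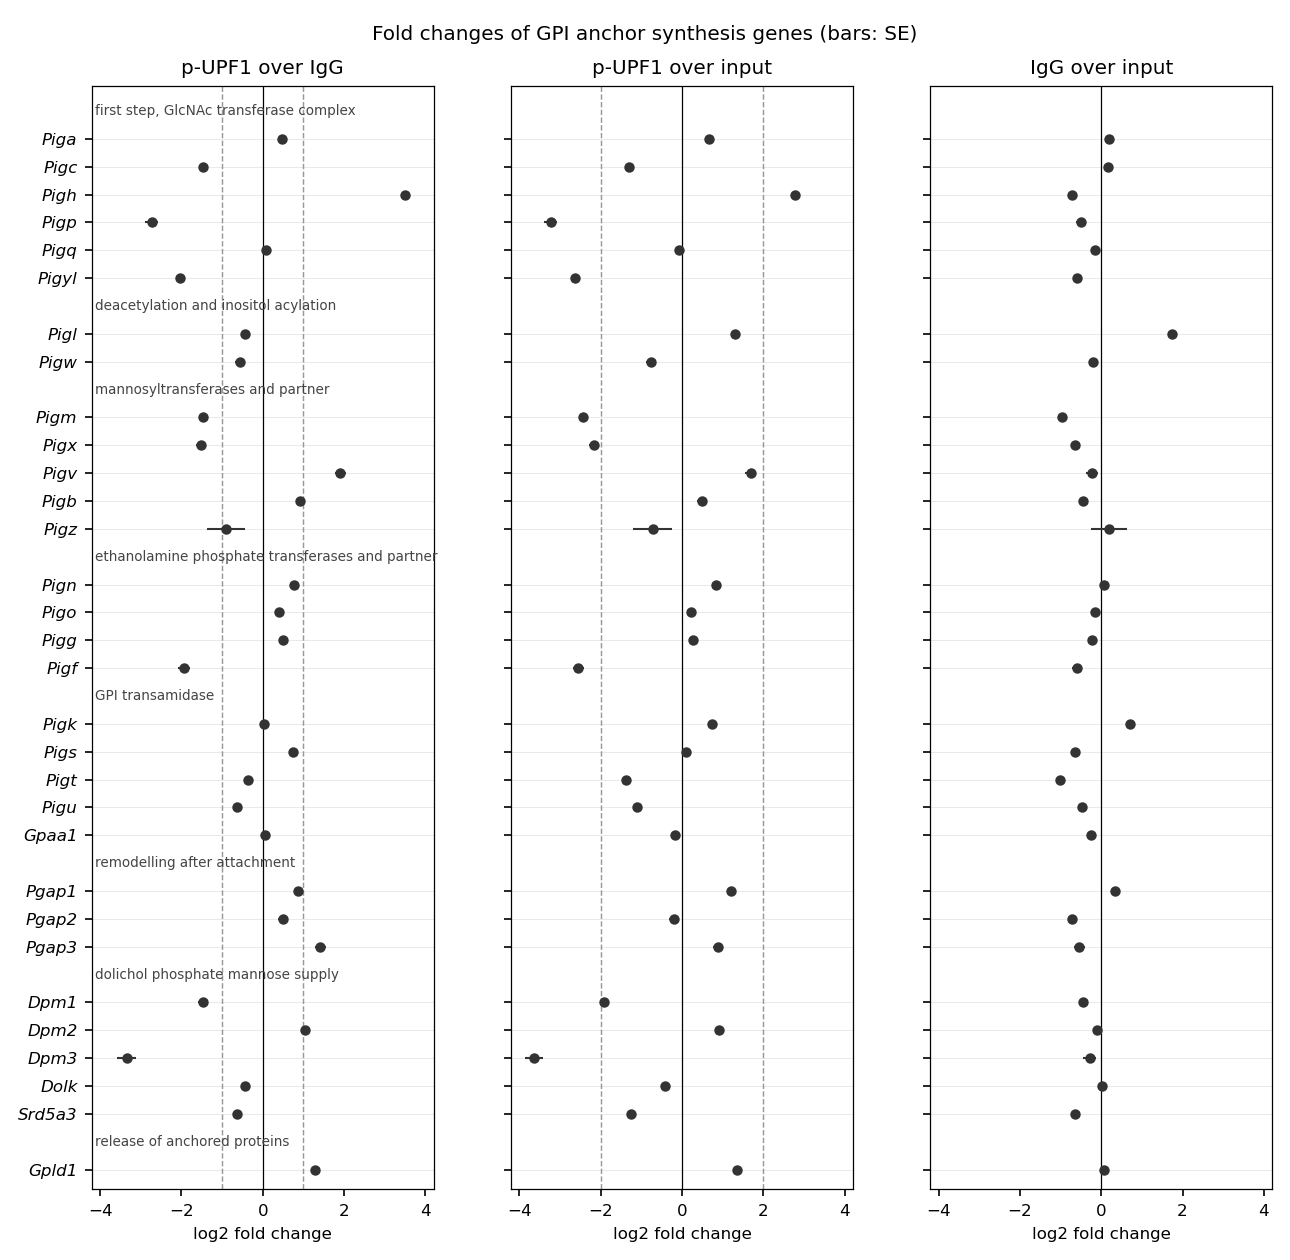
Log2 fold changes (points) with SE (bars) of the 31 GPI genes in the 3 contrasts between p-UPF1, IgG and input (left, middle and right panels as titled), with dashed lines at 1 and 2 log2 units where a criterion uses them. Values over IgG run from 3.49 for Pigh to −3.35 for Dpm3, while 29 of 31 points in the IgG over input panel lie within 1 log2 unit of 0.

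The normal rabbit IgG precipitate shows what beads and a control antibody recovered. Relative to input, 3 GPI genes were higher there at an adjusted P under 0.05 (18.2% of all tested genes at any fold), which were Pigk, Pigl and Pgap1, and 17 were lower (34.7% of all tested genes), or 16 without Pigh. The median log2 fold change of the 31 genes was −0.24 and that of all tested genes −0.10. Pigk, at 52.5 to 53.9 CPM in input and 81.9 to 91.7 CPM in IgG, was at 0.71 (SE 0.052, adjusted P = 1.97e-08). Pigm was at −0.96 (SE 0.055), next to Pigt at the low end. The counts of this contrast depended on scaling, with 6 higher and 14 lower under library size alone, upper-quartile factors or another TMM reference. The median of all tested genes moved too, from −0.10 to 0.013 with library size alone and −0.032 with upper-quartile factors. It was 0.005 and −0.002 with an input and an IgG library as TMM reference. The counts also depended on IgG library A, without which 6 were higher and 20 lower and the median of all tested genes was −0.11. Shares of all tested genes called in these settings are not given here, so the shifts are not read as a trait of the GPI genes. Pgap1 stood at 67.2 CPM in IgG library A and at 95.6 and 94.6 CPM in the other IgG libraries, and without IgG library B or C it no longer passed.

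Annotated exons of 12 of the 31 genes (38.7%) overlap those of another gene, beside 30.5% of 11905 tested protein-coding genes. The strand setting of the counting is not given for these libraries in the sources used here, while the study's RNA-seq methods name an unstranded alignment. For Pigh, 987 of 3115 exon bases (31.7%) lie opposite Plekhh1. That gene had 1.43 ± 0.050 CPM in the input libraries, 2.61 ± 0.23 CPM with IgG and 2.02 ± 0.42 CPM with p-UPF1 (mean ± SD, n = 3) and did not pass with p-UPF1 over IgG (−0.36, SE 0.22, adjusted P = 0.139). A further 314 exon bases of Pigh are shared with 9230116L04Rik, a long noncoding RNA on the same strand that the count table does not list. The part of either gene in the counts of Pigh was not tested. Large shares were also found for Pigb with Ccpg1 (35.5% of its exon bases, opposite strand), Pigf with Rhoq (31.5%, opposite), Gpld1 with Mrs2 (29.1%, opposite), Pigp with the pseudogene Gm15310 (23.6%, same strand) and with Ttc3 (18.1%, opposite), and Dpm1 with the long noncoding RNA Gm20716 (39.7%, same strand). Mrs2 was itself at 1.18 (SE 0.093) over IgG, near the value of Gpld1, while Rhoq was at 1.03 (SE 0.058) where Pigf was at −1.94. What these neighbours contribute was not tested. Of the 19 genes without such overlap, none met the combined criterion (6.25% of all tested genes), 3 were higher (Pigv, Pgap3, Dpm2; 22.2%) and 4 lower (Pigm, Pigx, Pigyl, Dpm3; 21.9%) over IgG, and 4 were lower over input (9.67%).

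Several features of the transcripts, which the choice of genes did not use, were set beside the fold changes as a description. Across the 31 GPI genes, 3′ UTR length and the log2 fold change over IgG had a Spearman rho of 0.44, and across 11905 tested protein-coding genes rho was 0.36. With the log2 fold change over input rho was 0.54 and 0.37, and with IgG over input, where no p-UPF1 library enters, it was 0.32 and 0.17. For the length of the whole transcript rho over IgG was 0.43 and 0.29, for exon number 0.44 and 0.081, and for the length of the coding sequence 0.42 and 0.13. With IgG over input, rho was 0.442 and 0.341 for transcript length, 0.166 and 0.277 for exon number, and 0.335 and 0.356 for coding length. Relations with length were thus also present where no p-UPF1 library enters. Without Pigh the 30 other genes had a rho over IgG of 0.43 for 3′ UTR length, 0.52 for exon number and 0.54 for coding length. Pigh has a coding sequence of 567 bases and a 3′ UTR of 1735 bases, beside medians of 1329 and 774 bases for the 31 genes. Across all tested protein-coding genes the medians were 1401 and 1015 bases. Pigm, with 6129 bases of 3′ UTR, was nevertheless low, and Pgap1, with 7706, was below 1 over IgG. Genes are not independent replicates, all points come from the same 9 libraries, and the part of transcript length in library preparation was not tested.

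**Figure D4:**
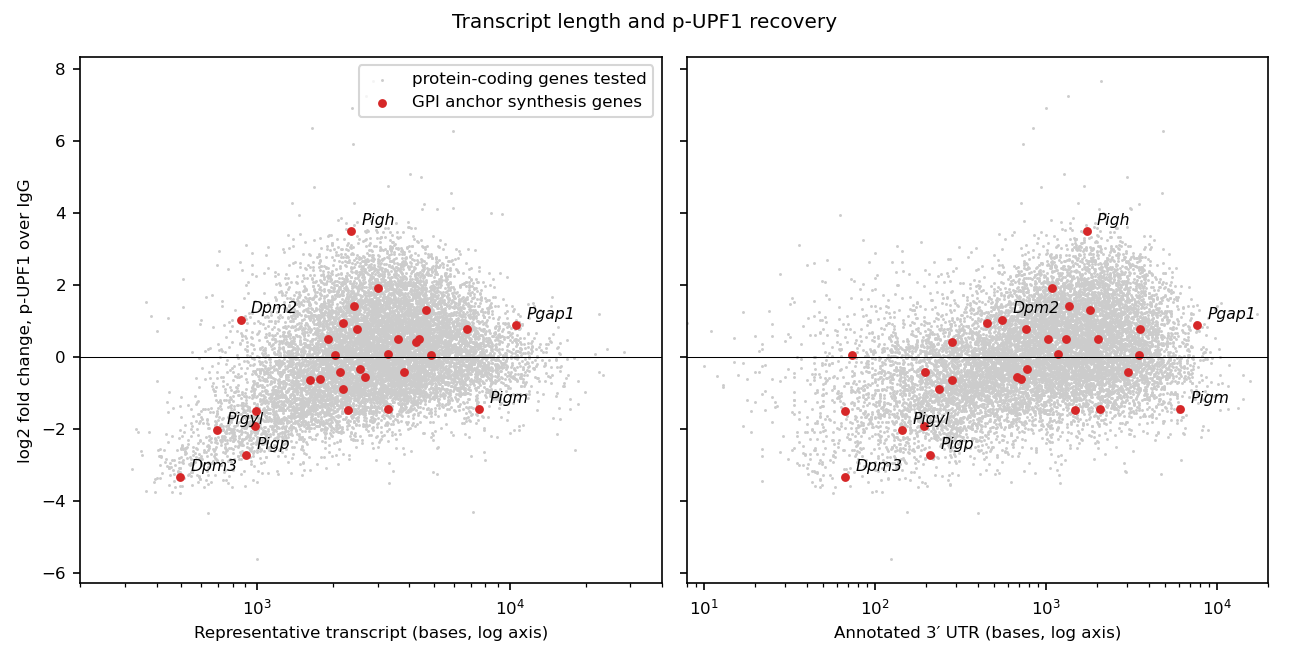
Log2 fold change of p-UPF1 over IgG against the length in bases (log axes) of the representative RefSeq transcript (left) and of its 3′ UTR (right), for protein-coding genes (grey) and the 31 GPI genes (red). The short transcripts Dpm3, Pigyl and Pigp lie at the lower left, Dpm2 lies above them at a like length, and Pigm and Pgap1 lie apart at the right.

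The 5 GPI genes lowest over IgG had short transcripts. Transcripts under 1000 bases, a limit set after the values were seen, belonged to 6 GPI genes (Pigf, Pigp, Pigx, Pigyl, Dpm2 and Dpm3). Over IgG, 5 of them were at −1 or lower and Dpm2 was at 1.03. Among all 699 protein-coding genes with so short a transcript, 75.0% were at −1 or lower and 5.01% at 1 or higher. Exon number was set beside the values in the same way. The 6 GPI genes of 1 or 2 exons (Pigc, Pigm, Pigw, Pigyl, Dpm3 and Dolk) were all below 0 over IgG with a median of −1.47, while 58.4% of 748 such genes overall were below 0 with a median of −0.35.

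Features linked to NMD were looked up in 1 representative RefSeq transcript per gene. None of these 31 transcripts has an exon junction more than 50 bases after the stop codon, a layout found in those of 35 of 11905 protein-coding genes (0.294%). Other annotated transcripts of the genes were not covered by that search. GENCODE lists a transcript of the NMD class for 9 of the 31 genes (29.0%, against 29.3% of all protein-coding genes), and Pigh is not among them. The median log2 fold change over IgG was 0.058 for those 9 and −0.43 for the other 22, beside 0.17 and −0.061 for all protein-coding genes with and without such a transcript. The number of ATG triplets in the 5′ UTR had a rho with the log2 fold change over IgG of 0.044 across the 31 genes and 0.13 across all protein-coding genes, and Pigh has none in its 51 bases of 5′ UTR. TGA ends 11, TAA 12 and TAG 8 of the 31 reading frames, and TGA ends 51.7% of all protein-coding ones. The medians over IgG were 0.75 for the TGA genes (0.42 for the 10 other than Pigh), −1.05 for the TAA genes and −0.39 for the TAG genes, against 0.10, −0.19 and 0.054 in all protein-coding genes.

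Related genes outside the 31 were counted in the same way, against the 6.25% bound, 22.2% higher and 21.9% lower over IgG among all tested genes. Of 14 tested further genes of the GPI pathway and of general dolichol supply, 1 met the combined criterion, 3 were higher and 0 lower over IgG. The bound gene was Dolpp1, the dolichyl pyrophosphate phosphatase that recycles the carrier, at 2.51 (SE 0.055) over IgG and 2.33 (SE 0.054) over input, and the lowest was Nus1, a subunit of the dolichol-making cis-prenyltransferase, at −0.98 (SE 0.048) over IgG. Of 14 dolichol-using genes of N-glycan assembly, 1 met the criterion, 4 were higher and 0 lower. It was Alg2, a mannosyltransferase gene, at 2.96 (SE 0.051) over IgG and 2.19 (SE 0.048) over input, and Alg10b was the lowest at −0.94 (SE 0.068). Of 26 tested genes listed for GPI-anchored proteins, 2 met it, 9 were higher and 5 lower. The 2 that met it were Nt5e, the GPI-anchored ecto-nucleotidase CD73 (2.61, SE 0.25 over IgG; 2.58, SE 0.24 over input), and H60b, a ligand of the receptor NKG2D (2.89, SE 0.16 over IgG; 3.07, SE 0.16 over input). H60b and Ulbp1, another such ligand, code for proteins held to span the membrane and stand wrongly on that list, and of the 24 genes left without both, 1 met the criterion, 7 were higher and 5 lower. Cd52 was lowest at −2.47 (SE 0.069) over IgG.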

How the data were processed

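The deposited table holds unscaled read counts, 1 row per NCBI Gene number and 1 column per library. Per the submitters' processing notes, the authors used cutadapt, HISAT2, featureCounts and mm10, without versions. Libraries were made with a directional kit from polyA RNA, and the strand setting of their counting is not given in the sources used here, while the RNA-seq methods name an unstranded alignment. Reads of opposite or near-identical genes may therefore be split uncertainly. No molecular identifiers were counted, so counting error understates the true error. The authors' methods state the combined criterion.

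Columns carry letters and labels carry numbers, so columns were assigned to groups only. Of 27179 identifiers, 25275 matched RefSeq symbols on GRCm38, 18 more matched GENCODE M21 and 1886 matched none. Genes were kept by filterByExpr (minimum count 10, minimum total 15), which left 13129. All 9 libraries were fitted in 1 model with TMM factors and 6 residual degrees of freedom in edgeR 4.0.16 (R 4.3.3; glmQLFit and glmQLFTest, two-sided, prior count 0.125), with Benjamini-Hochberg adjustment over all tested genes. The SE was derived from the test statistic. CPM were computed here with TMM factors from the deposited counts, and CPM per kb divides them by the union of annotated exons. DESeq2 1.42.0, limma-voom (limma 3.58.1), other scalings, filters, a fold-testing model and leaving out each library were alternatives, and the column letter as a block was added after the data were seen.

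The members and gene lists were chosen with earlier results of these data known. CPM of every library were printed by rule for genes meeting the combined criterion, the gene nearest below each minimum, the 3 lowest over IgG, and genes with IgG over input past an adjusted P of 0.05 and 1 log2 unit. Other genes could be named by role, by overlap with a GPI gene or as the bound and lowest genes of a list. One item is not reported here.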

Additional observations from a re-analysis of the deposited data

How the results depend on the processing

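Of 93 log2 fold changes, 69 kept their direction and their side of the adjusted P threshold under every alternative in which they were followed. The fold-testing model and the setting without overlapping genes gave no such values. The minima of 1 and 2 log2 units did not enter, so Dpm2 over IgG counts as kept although it crossed 1. Over 2043 such values, 1936 did so, 41 lost and 46 gained the threshold, and 20 changed sign in 8 results whose size in the fit reported was at most 0.187. The labels' replicate numbers are not in the column names, which carry a letter in every group. A fit with that letter as a replicate block, added after the data were seen, gave 1 bound, 5 higher and 8 lower in p-UPF1 than IgG, 1 higher and 6 lower in p-UPF1 than input, and 3 higher and 17 lower in IgG than input, as without the block. The study's methods take input from the lysate and incubate the rest with either antibody, so libraries of different groups may share a lysate. No source says that a letter marks a shared lysate, and the fit reported is unpaired. The deviations of the 9 same-letter pairs from their group means correlated at −0.005 to 0.054, beside −0.056 to 0.022 for the 18 other pairs. Pairs of letters A and B lay at 0.032 to 0.054 and those of C at −0.005 to 0.008, with not every library closest to its own letter. The causes of these shifts were not tested, except that leaving out genes reduces what can be counted.

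The count of GPI genes higher in IgG than in input was 6 in place of 3 with library size alone, upper-quartile factors, TMM on an input or an IgG library, no filter on low counts, and a fit of only the groups compared. In each of these settings the median of all genes for that contrast was also higher than in the fit reported, and the shares of all genes called are not given here. Without the genes that overlap another gene, 0 were bound, 3 higher and 4 lower in p-UPF1 than in IgG, 0 higher in p-UPF1 than in input, and 10 lower in IgG than in input. With 1 library left out at a time there were 1 to 1 bound, 4 to 6 higher and 8 to 9 lower in p-UPF1 than IgG, 1 to 1 higher and 6 to 6 lower in p-UPF1 than input, and 2 to 6 higher and 16 to 20 lower in IgG than input. IgG library A gave the 6 and the 20. The fold-testing model has no count for IgG over input, which used no fold minimum, and Pigz dropped out under a filter of 1 CPM in 3 libraries.

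Sign changes for p-UPF1 over IgG were, with library size alone, upper-quartile factors and an input library as TMM reference, −0.126, −0.101 and −0.048 for Pigk, −0.079, −0.054 and −0.002 for Pigq and −0.104, −0.079 and −0.027 for Gpaa1. Pigq over input was at 0.048 with an IgG library as TMM reference and 0.053 without the filter, and Dpm2 in IgG over input was at 0.003 with library size alone. With 1 library left out at a time, the range crossed 0 for Pigk in p-UPF1 over IgG (−0.009 to 0.083) and, in IgG over input, for Pigz (−0.318 to 0.537), Dolk (−0.052 to 0.115) and Gpld1 (−0.04 to 0.193). The median of all genes for p-UPF1 over IgG was −0.03 in the fit reported, −0.19 with library size alone and −0.17 with upper-quartile factors, and for IgG over input −0.10 and 0.01 with library size alone. Reads limit Pigz (7 to 25 per library) and the p-UPF1 values of Dpm3 (21 to 26) and Pigp (19 to 29).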
